A study of Mus musculus with 22 samples.

Results

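The 10 genes described here encode the AP-1 and EGR immediate early transcription factors: the FOS family (Fos, Fosb, Fosl1 and Fosl2), the JUN family (Jun, Junb and Jund) and the EGR family (Egr1, Egr2 and Egr3). They were picked by gene name from the 21898 named genes of the deposited table, as members of these families and by a rule that uses no measured value, although earlier results of these data were known when the families were picked. All 10 were found there. Immediate early genes are transcribed within minutes of a stimulus from factors already present in the cell, and their transcripts and proteins are usually short-lived. AP-1 is a dimer of basic leucine zipper (bZIP) proteins in which FOS proteins need a JUN partner, whereas JUN proteins can also pair among themselves. EGR proteins are zinc finger factors that bind GC-rich sites, and in heart muscle both families are known to be induced by adrenergic stimulation, mechanical load and ischemia.

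The treatment group comprised 4 mice that went through 3 weeks of unpredictable psychological stress and received JWH133, an agonist of the cannabinoid receptor CB2R, at 10 mg/kg by intraperitoneal injection, with 2 injections a day. The case group comprised 4 mice with the same 3 weeks of stress and no JWH133, and the control group comprised 3 normal mice. All mice were male, 6 weeks old at the start and from the same supplier. The study describes behavioural tests on mice of all groups, controls included, a day after the stress procedure ended. Forced swimming and tail suspension were among these tests. The strain and any vehicle injections in the case and control mice were not stated in the text available for this work. Nor was the time from the last stressor, or from these tests, to removal of the heart. Whole hearts were taken, so each library was 1 mouse and mixed all cardiac cell types, and fewer cells of a type could not be told apart from less RNA per cell.

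The 11 libraries held 29410822 to 34412849 counts over named genes, with 15407 to 15767 genes detected, and are called by the letters a to d of the table. Cardiomyocyte markers (6 genes, such as the myosin heavy chain Myh6) summed to 12536 to 14745 FPKM in treatment hearts, 9364 to 14935 FPKM in case hearts and 13933 to 14428 FPKM in control hearts, and markers of lung epithelium stayed at or below 0.517 FPKM in sum. On the first principal component, the case hearts had scores of 60.7 (library a), 64.6 (b) and 29.7 (c), whereas library d of that group scored -9.81, close to the treatment libraries (-22.7 to -9.94) and apart from the controls (-27.7 to -23.3). Results that rest on case library d are therefore given with and without it. FPKM was computed as the count divided by transcript length and by the library's total, in the usual scale, so it can be compared between genes. A gene was called when its Benjamini-Hochberg adjusted p, over all 14050 genes tested with edgeR's quasi-likelihood test, was under 0.05.

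The promoters of 3 called factors are printed first to show the sequence that lies directly before their starts. These are Fos and Junb, called as higher in case hearts, and Jun, called as lower with JWH133, and the lines give the 250 bases that precede the RefSeq start site (build GRCm38.p6), 5′ to 3′ on the gene's own strand. The Junb start of RefSeq lies 30 bases upstream of that in GENCODE M21, and those of Fos and Jun are the same in both. Capitals mark TGACG, the core of the site read by CREB and ATF factors, TGACATCA, the AP-1-like octamer of the Jun promoter, the TATAAA box and CCAAT.

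Fos, chr12:85473640-85473889, plus strand: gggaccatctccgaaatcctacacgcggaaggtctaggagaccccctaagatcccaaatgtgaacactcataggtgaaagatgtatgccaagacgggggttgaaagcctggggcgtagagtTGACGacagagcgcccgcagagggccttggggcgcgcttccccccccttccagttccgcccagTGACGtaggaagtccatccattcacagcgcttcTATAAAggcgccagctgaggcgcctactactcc
Junb, chr8:84978749-84978998, minus strand: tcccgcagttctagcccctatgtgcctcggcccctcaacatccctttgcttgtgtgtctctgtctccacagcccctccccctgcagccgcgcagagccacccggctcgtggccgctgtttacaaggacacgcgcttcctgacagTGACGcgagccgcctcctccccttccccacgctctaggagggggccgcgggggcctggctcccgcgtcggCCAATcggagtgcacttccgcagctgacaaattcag
Jun, chr4:95052223-95052472, minus strand: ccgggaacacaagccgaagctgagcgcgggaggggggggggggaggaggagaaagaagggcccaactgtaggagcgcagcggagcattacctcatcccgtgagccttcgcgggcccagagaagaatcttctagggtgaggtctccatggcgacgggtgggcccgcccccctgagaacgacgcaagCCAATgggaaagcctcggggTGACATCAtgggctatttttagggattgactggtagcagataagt

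The Fos window held TGACG at 129 to 125 and again at 66 to 62 bases before the start, and TATAAA at 33 to 28. The Junb window held TGACG at 106 to 102 and CCAAT at 36 to 32. The Jun window held CCAAT at 65 to 61 and TGACATCA at 45 to 38, and no TGACG. Windows of 7 factors were searched on both strands, not all of which lie at the GENCODE start. Relative to the GENCODE start, with positive values downstream, the RefSeq start used lies at 671 bases for Fosl2 and at -1210 bases for Jund. Fosl1, Egr1 and Egr3 were not searched. TGACG was present in 3 of the 7 windows (Fos, Fosb and Junb), against 17.8% of 32851 mouse windows of the same length. GCGNGGGCG, the site read by EGR proteins, was present in 2 (Fosb and Fosl2), against 4.7%, and it overlapped a GGGCGG there. TGACATCA was present in 1 (Jun), against 2.93%, and TATAAA in 1 (Fos), against 12.4%. CCAAT was present in 2 (Jun and Junb), against 33.8%, and GGGCGG in 5, against 32.7%. The AP-1 site TGANTCA (6.75% of windows), the full TGACGTCA (1.55%) and the CArG box read by SRF (1.47%) had no match in the 7 windows. Bases further upstream than these windows, and those after the start used, were not searched. A missing match therefore does not show that a gene lacks the site. The matches describe letters only and were not related to the measured levels.

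The levels of the 10 factors spanned a wide range in the heart, and the order differed between groups. In control hearts Jund was highest at 36.0 ± 7.68 FPKM, followed by Jun (22.9 ± 2.65), Fosl2 (8.61 ± 0.202), Egr1 (4.81 ± 0.206), Junb (3.86 ± 0.500) and Fos (1.38 ± 0.292; SD, n = 3 each), and no 2 neighbours among these 6 overlapped in range. Egr2, Egr3 and Fosb followed at mean levels of 0.393, 0.346 and 0.314 FPKM with overlapping ranges. Fosl1 was last at 0.0214 FPKM. In case hearts Jun (34.2 ± 9.77 FPKM) and Jund (33.6 ± 5.77 FPKM; SD, n = 4 each) overlapped at the top, and each neighbour down to Egr1 overlapped the next (Fosl2 at 26.3 ± 9.09, Junb at 15.9 ± 3.38 and Fos at 10.5 ± 6.29 FPKM). In treatment hearts the order was Jund (30.1 ± 4.53 FPKM), Jun (19.6 ± 2.51), Fosl2 (7.18 ± 0.680) and Junb (4.98 ± 0.692; SD, n = 4 each), without overlap among these 4. Egr1, Fos, Egr2, Egr3 and Fosb followed, each overlapping the next.

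**Figure D1:**
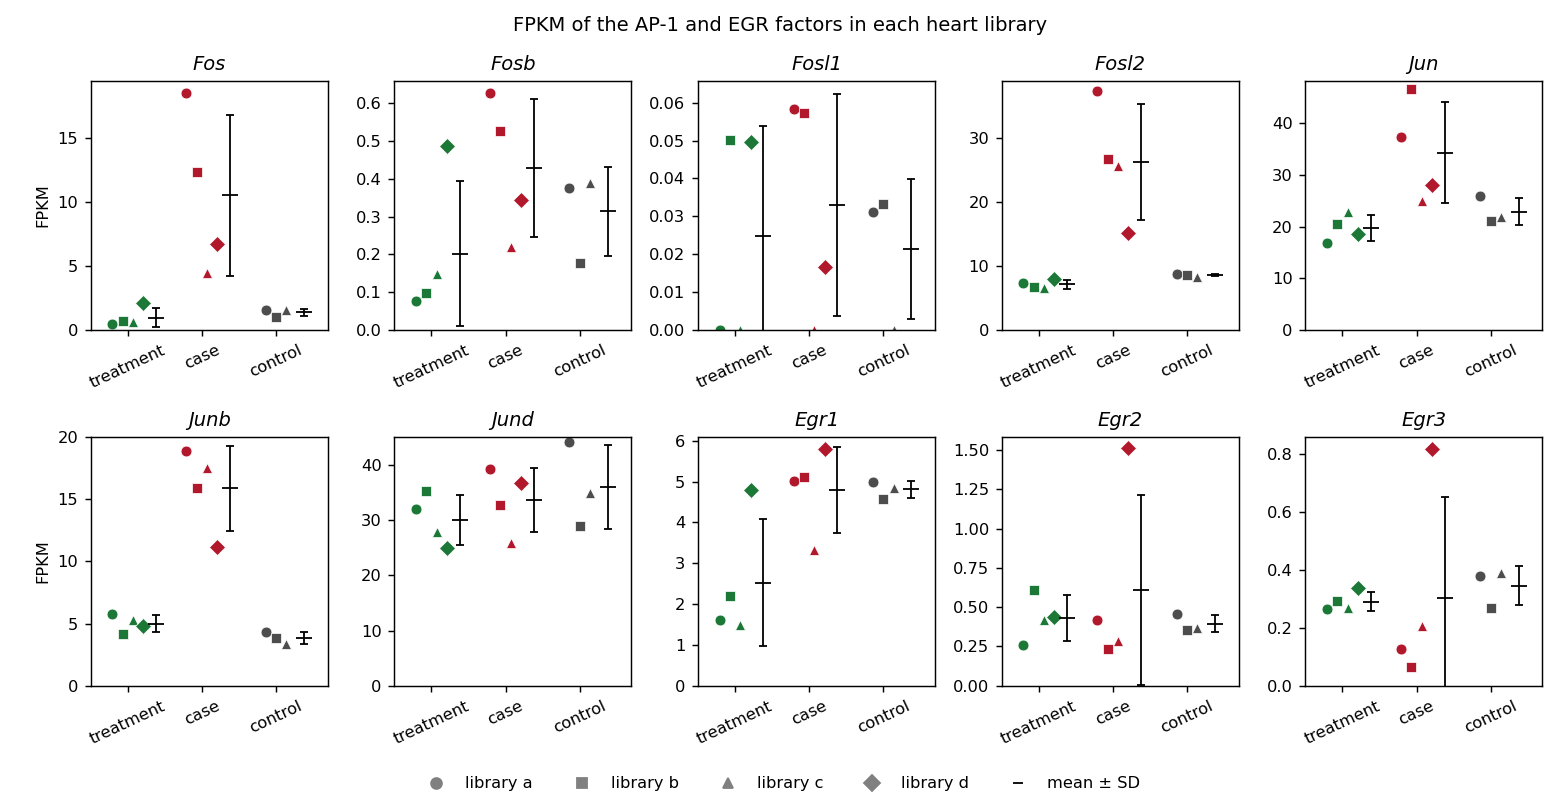
Level of each of the 10 factors in FPKM (vertical axes, a scale per gene) in the treatment, case and control hearts. Symbols are single libraries (a letter does not link mice of different groups) and bars are the mean ± SD. For Fos, Fosl2 and Junb the lowest case heart lies above every treatment and control heart, and for Egr2 and Egr3 the highest case heart is library d.

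In the comparison of stressed with normal hearts, which asks what the stress procedure changed, 3 of the 9 factors tested were called, Fos, Fosl2 and Junb, each of them higher under stress. Of all 14050 genes 15.8% were called in this comparison, 8.21% as higher. Case and control hearts did not overlap for these 3 factors, all higher, against 25% of all genes tested (13.7% as higher). The median log2 fold change was 0.60 over the 9 factors tested and 0.01 over all genes. The AP-1 factors called therefore came from both the FOS and the JUN family, and no EGR factor passed the test. When JWH133 was given during the stress, which asks what the agonist changed, 4 of the 9 were called, Fos, Fosl2, Jun and Junb, each of them lower with the agonist. Of all genes 10.9% were called there, 6.57% as lower, and the median log2 fold change was -0.95 over the 9 factors and 0.01 over all genes. Treatment and case hearts did not overlap for these 4 factors, all lower, against 14.3% of all genes (8.22% as lower). The comparisons share the 4 case libraries, so they are not independent of each other.

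Fos, the founding AP-1 factor, showed the largest fold changes of the 9 factors tested in both of these comparisons. It is also one of the ER stress genes that the study selected on these same hearts. Its level was 0.453, 0.708, 0.669 and 2.13 FPKM in treatment libraries a to d, 18.6, 12.3, 4.49 and 6.75 FPKM in case libraries a to d, and 1.56, 1.05 and 1.55 FPKM in control libraries a to c. All 4 case hearts lay above all other hearts, although they differed among themselves by 4.14-fold. Fos was 7.81-fold higher in case than in control hearts (log2 fold change 2.96 ± 0.59 SE, edgeR adjusted p = 0.00847). In treatment hearts it was 11.05-fold lower than in case hearts (log2 fold change -3.47 ± 0.54 SE, edgeR adjusted p = 0.00676), with a log2 fold change of -4.17 (adjusted p = 0.0120) without treatment library d. Treatment library d had 3.01 times the Fos level of the next treatment heart, and it was the only treatment heart above the control range. The gene lies at chr12:85473890-85477273 on the plus strand (GENCODE M21, GRCm38, as for the other genes).

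Fosl2 encodes FRA-2, a FOS protein without the strong transactivation domain of FOS and the most abundant family member in every heart. Its level was 7.36, 6.77, 6.53 and 8.06 FPKM in treatment libraries a to d, 37.4, 26.7, 25.8 and 15.2 FPKM in case libraries a to d, and 8.77, 8.67 and 8.38 FPKM in control libraries a to c. The lowest case heart, library d, still lay above every other heart. Fosl2 (chr5:32135801-32157842) was 3.11-fold higher in case than in control hearts (log2 fold change 1.64 ± 0.25 SE, edgeR adjusted p = 0.00252). In treatment hearts it was 3.77-fold lower than in case hearts (log2 fold change -1.92 ± 0.23 SE, edgeR adjusted p = 0.00360).

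The other 2 FOS genes were scarce in the heart. Fosb, a close homolog of FOS whose spliced product ΔFosB is known for its stability in neurons, was measured at 0.0777, 0.0980, 0.147 and 0.485 FPKM in treatment libraries a to d, 0.627, 0.526, 0.221 and 0.343 FPKM in case libraries a to d, and 0.374, 0.178 and 0.389 FPKM in control libraries a to c. The 3 groups overlapped, and neither comparison with the case group passed the test (case against control, log2 fold change 0.48 ± 0.59 SE, edgeR adjusted p = 0.611, and treatment against case, -1.13 ± 0.56 SE, adjusted p = 0.192). The overlap of treatment with case hearts for Fosb (chr7:19302696-19310051, minus strand) involves treatment library d. The fit without that library gave a log2 fold change of -2.05 and an edgeR adjusted p of 0.0422. Since the library was picked out by its high value, this p-value is not separate support for a difference. Fosl1 (chr19:5447547-5455946), which encodes FRA-1, had 0 to 4 reads per library, was removed by the filter on low counts and was not tested. At this depth 3 reads correspond to 0.0429 to 0.0502 FPKM, so differences between groups at such levels could not be resolved. Moreover 1163 of its 2033 annotated exonic bases are shared with Ccdc85b on the other strand, and the sources used here do not state whether counting used strand.

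Among the JUN genes, Junb changed and Jund did not pass the test in any comparison. Junb encodes a JUN protein of weaker activity that restrains JUN in several cell types. Its level was 5.74, 4.12, 5.26 and 4.78 FPKM in treatment libraries a to d, 18.9, 15.9, 17.5 and 11.1 FPKM in case libraries a to d, and 4.36, 3.86 and 3.36 FPKM in control libraries a to c. Here too every case heart lay above all other hearts. Junb was 4.17-fold higher in case than in control hearts (log2 fold change 2.06 ± 0.21 SE, edgeR adjusted p = 0.000403) and 3.27-fold lower in treatment than in case hearts (-1.71 ± 0.18 SE, adjusted p = 0.00242). Junb (chr8:84974484-84978718, minus strand) shares 173 of its 2301 annotated exonic bases with Prdx2, a peroxiredoxin gene on the opposite strand. Prdx2 lay at 96.9 to 121 FPKM in treatment, 94.0 to 113 FPKM in case and 100.2 to 111 FPKM in control hearts, and its log2 fold change between case and control was -0.05 ± 0.10 SE (edgeR adjusted p = 0.749).

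Jun, the main transactivating JUN protein and a target of JNK, had smaller fitted fold changes than Junb. It was measured at 16.9, 20.4, 22.7 and 18.5 FPKM in treatment libraries a to d, 37.3, 46.6, 24.97 and 28.0 FPKM in case libraries a to d, and 25.9, 20.98 and 21.8 FPKM in control libraries a to c. Every treatment heart lay below every case heart, whereas case library c fell within the control range. Jun (chr4:95049034-95052222, minus strand) was 1.801-fold lower in treatment than in case hearts (log2 fold change -0.85 ± 0.20 SE, edgeR adjusted p = 0.0258), and the difference of case from control did not pass (0.61 ± 0.22 SE, adjusted p = 0.0766). The side of the threshold changed in some fits, while the direction did not. The log2 fold change of treatment against case lay between -0.99 and -0.62 over the other fits, and its call was lost without case library a (adjusted p = 0.0742) or b (0.0534), without treatment library a (0.0690), b (0.0652) or d (0.0675), and with only the 8 libraries of the comparison (0.0688). Conversely, the difference of case from control passed without case library c (adjusted p = 0.0326) or d (0.0188), and with DESeq2 (0.0305).

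Jund, which is expressed constitutively in many tissues and is known to limit hypertrophic growth in mouse heart, lay at 32.1, 35.3, 27.8 and 25.04 FPKM in treatment libraries a to d, 39.2, 32.8, 25.9 and 36.7 FPKM in case libraries a to d, and 44.2, 28.95 and 34.8 FPKM in control libraries a to c. The 3 groups overlapped throughout. The log2 fold change of Jund (chr8:70698949-70700616, plus strand) was -0.08 ± 0.18 SE in case against control (edgeR adjusted p = 0.777) and -0.20 ± 0.16 SE in treatment against case (adjusted p = 0.444). The annotated antisense genes Junos and Gm11175 share 232 exonic bases with Jun and 877 with Jund, and neither has a line in the table. Where counting ignored strand, their reads could not be told apart from those of Jun and Jund.

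**Figure D2:**
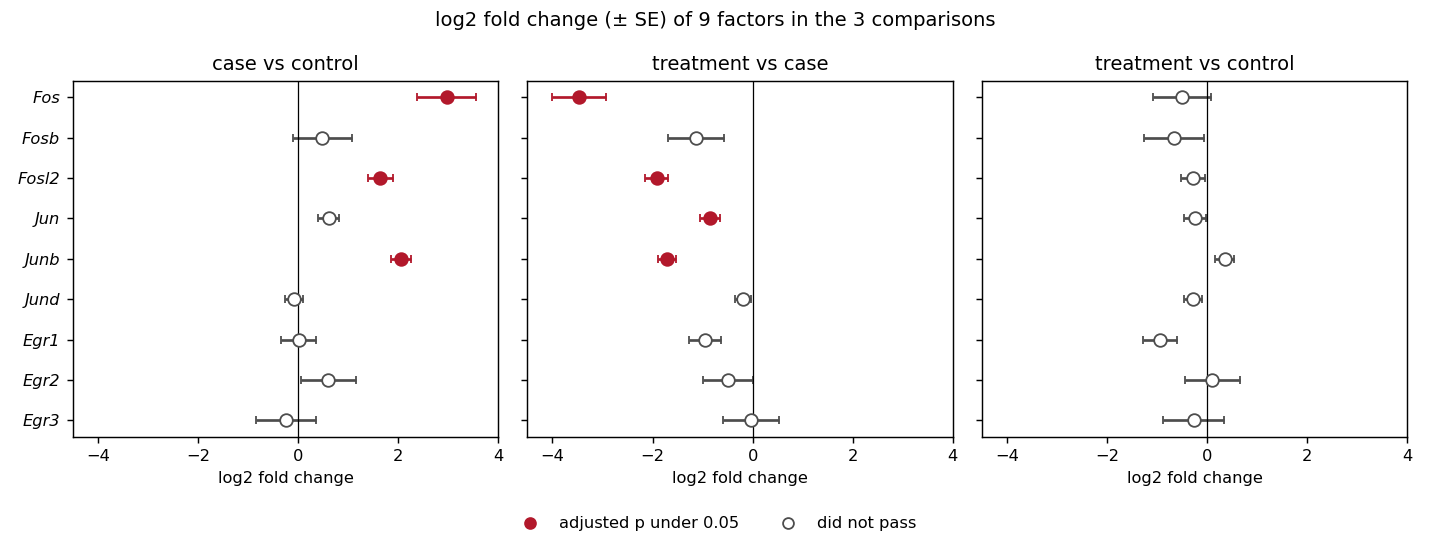
Log2 fold change of the 9 factors tested (horizontal axes, edgeR, bars ± SE) in case against control, treatment against case and treatment against control. Filled points have an adjusted p under 0.05. Fos, Fosl2 and Junb are filled to the right of 0 in the first panel, Fos, Fosl2, Jun and Junb to the left in the second, and none in the third.

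Among the EGR genes, edgeR called 0 in either comparison with the case group, with 0 of the 3 at an unadjusted p under 0.05 in case against control and 1 (Egr1) in treatment against case. Egr1, a widely inducible zinc finger factor, was measured at 1.61, 2.21, 1.48 and 4.80 FPKM in treatment libraries a to d, 5.02, 5.10, 3.31 and 5.79 FPKM in case libraries a to d, and 4.99, 4.58 and 4.85 FPKM in control libraries a to c. Case and control hearts were alike in mean (4.80 and 4.81 FPKM), with a log2 fold change of 0.01 ± 0.34 SE (edgeR adjusted p = 0.985). Treatment libraries a, b and c lay below every other heart, and treatment library d lay within the case and control ranges. The fitted ratio of treatment to case hearts was 0.516 for Egr1, which did not pass (log2 fold change -0.95 ± 0.32 SE, edgeR adjusted p = 0.0746). It passed with DESeq2 (-0.96, adjusted p = 0.0185) and with edgeR without treatment library d (-1.48, adjusted p = 0.0127). As that library was picked out by its high value, the fit without it is not separate support.

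Egr2 and Egr3, zinc finger factors best known from myelinating glia (Egr2), muscle spindles (Egr3) and lymphocytes, were scarce, and case library d decided their case values. Egr2 lay at 0.257, 0.610, 0.415 and 0.435 FPKM in treatment libraries a to d, 0.419, 0.231, 0.287 and 1.51 FPKM in case libraries a to d, and 0.455, 0.358 and 0.367 FPKM in control libraries a to c. Case library d had 3.60 times the level of the next case heart and 2.47 times that of the next heart of any group. The log2 fold change of Egr2 (chr10:67535475-67542188) in case against control was 0.60 ± 0.55 SE (edgeR adjusted p = 0.485), and -0.29 (adjusted p = 0.559) without that library. Egr3 lay at 0.264, 0.293, 0.268 and 0.336 FPKM in treatment libraries a to d, 0.128, 0.0660, 0.206 and 0.817 FPKM in case libraries a to d, and 0.380, 0.268 and 0.389 FPKM in control libraries a to c. Case libraries a, b and c were thus the 3 lowest hearts and case library d the highest. With all libraries Egr3 (chr14:70077203-70082614) did not differ beyond this spread (case against control, log2 fold change -0.24 ± 0.60 SE, edgeR adjusted p = 0.815). Without case library d, the edgeR fit gave Egr3 as lower in case than in control hearts (-1.36, adjusted p = 0.0139). It gave Egr3 as higher in treatment than in case hearts (1.09, adjusted p = 0.0327). Of all genes 31.9% and 31.2% were called in these comparisons of that fit. As case library d holds the highest Egr3 level, the fit without it is not separate support for a difference.

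In treatment against control hearts, which asks what remained different under stress with JWH133, edgeR called 0 of the 9 factors, against 1.08% of all genes. At an unadjusted p under 0.05 there was 1 (Egr1), and DESeq2 and limma also called 0. The median log2 fold change was -0.28 over the 9 factors and 0.01 over all genes. Egr1 had a log2 fold change of -0.94 ± 0.35 SE (edgeR adjusted p = 0.310). It passed without treatment library d (-1.47, adjusted p = 0.0125), which was picked out by its high value. Fosl2 was the only factor whose treatment and control hearts did not overlap, against 19.3% of all genes (9.05% as lower), at a log2 fold change of -0.28 ± 0.24 SE (edgeR adjusted p = 0.742). Fos differed by -0.50 ± 0.58 SE (edgeR adjusted p = 0.832), and by -1.21 (adjusted p = 0.461) without treatment library d, and Junb by 0.35 ± 0.20 SE (adjusted p = 0.558). These p-values do not show that the groups were equal.

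Summed over the FOS family, the level was 8.40 ± 1.57 FPKM in treatment, 37.3 ± 14.8 FPKM in case and 10.3 ± 0.396 FPKM in control hearts (SD, n = 4, 4 and 3). Fosl2 made up 86.5 ± 7.87% of it in treatment, 71.5 ± 8.71% in case and 83.4 ± 3.40% in control hearts, whereas Fos made up 11.003 ± 6.13%, 27.2 ± 8.38% and 13.4 ± 2.45% in these groups. The JUN sum was 54.7 ± 4.76 FPKM in treatment, 83.7 ± 13.8 FPKM in case and 62.7 ± 10.6 FPKM in control hearts. Junb took 9.18 ± 1.58% of the JUN sum in treatment, 19.2 ± 4.74% in case and 6.21 ± 0.842% in control hearts, and Jund 54.8 ± 4.67%, 40.4 ± 5.95% and 57.1 ± 2.89%. The ratio of the FOS to the JUN sum was 0.128 to 0.222 in treatment, 0.294 to 0.594 in case and 0.144 to 0.185 in control hearts, so that the case hearts did not overlap the others. The EGR sum was 3.25 ± 1.61 FPKM in treatment, 5.72 ± 1.78 FPKM in case and 5.55 ± 0.312 FPKM in control hearts, of which Egr1 took 75.3 ± 7.81%, 85.8 ± 10.1% and 86.7 ± 1.17%. These sums and shares are descriptions of RNA and were not tested.

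**Figure D3:**
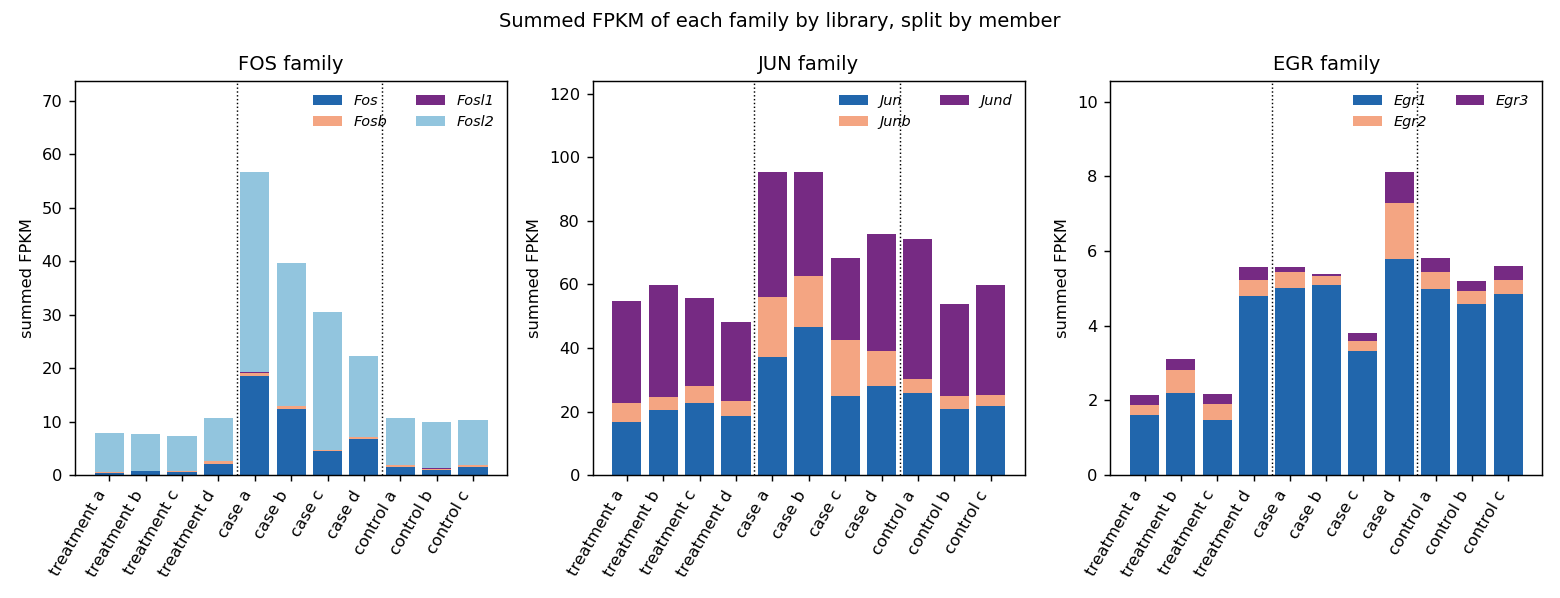
Summed FPKM (vertical axes, from 0) of the FOS, JUN and EGR families in each library, with the contribution of each member stacked by colour and the treatment, case and control libraries parted by dotted lines. The FOS sum is 22.3 to 56.7 FPKM in the case hearts and at most 10.7 FPKM in every other heart, mostly from Fosl2, while case library d holds the highest EGR sum at 8.12 FPKM.

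The 9 factors measurable above the filter did not follow a single pattern over the 11 hearts. Likeness was taken as the mean absolute difference of log2 CPM after each gene was centred on its own mean. For log2 CPM, counts were scaled to the library total adjusted by its TMM factor, with a prior count of 2. Fosl2 and Junb were the closest pair at 0.26, followed by Jun and Jund at 0.31, Fosb and Egr1 at 0.43, and Egr2 and Egr3 at 0.46. The first pair was high in the 4 case hearts, the third pair was low in treatment libraries a, b and c, and the fourth was high in case library d. Of all genes tested, those closest to Fos were Irs2, an adaptor of the insulin receptor (0.45), Atf3, a stress-induced bZIP factor (0.57), Btbd16 (0.62), the metallothionein Mt2 (0.63) and the heme oxygenase Hmox1 (0.64). Irs2 averaged 4.57 ± 0.689 FPKM in treatment, 36.0 ± 26.8 FPKM in case and 7.09 ± 1.54 FPKM in control hearts (SD, n = 4, 4 and 3). Btbd16 was scarce, at mean levels of 0.0339, 0.173 and 0.0343 FPKM in treatment, case and control hearts. Closest to Egr1 were Slc23a4 (0.21), the mitochondrial carrier Slc25a25 (0.25), the sodium channel subunit Scn2b (0.26), Cyp46a1 (0.26) and Nanos1 (0.28), all at mean levels below those of Egr1. Slc25a25 had group means of 1.88 to 3.25 FPKM, and the other genes of this set were scarce, with group means of at most 0.330 FPKM. The likeness values are on the log2 scale and are descriptions over 11 libraries without a test.

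**Figure D4:**
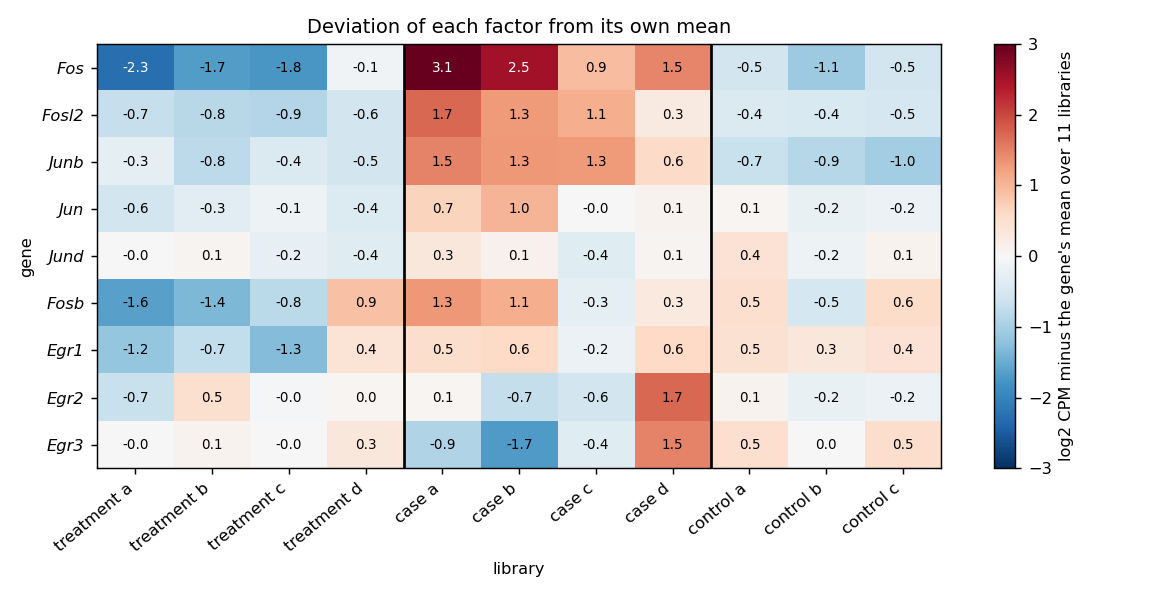
Log2 CPM of each of the 9 factors minus its own mean over the 11 libraries (colour and printed value), with genes as rows and libraries as columns in the order treatment, case and control. Fos, Fosl2 and Junb are positive in all 4 case libraries, Egr1 is negative in treatment libraries a, b and c, and Egr2 and Egr3 are highest in case library d.

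The genes around these factors were examined by role. Of 12 other bZIP proteins that can pair with or replace AP-1 subunits, 11 were tested. In case hearts 3 were higher and 0 lower, and with JWH133 0 were higher and 6 lower. Of all genes 8.21% were called as higher in case hearts and 6.57% as lower with JWH133. The list's median log2 fold change was 0.22 in the first comparison and -0.28 in the second, against 0.01 over all genes in both. Maff, a small MAF protein without a transactivation domain, had a log2 fold change of 2.45 ± 0.38 SE in case against control (edgeR adjusted p = 0.00268) and of -2.29 ± 0.34 SE in treatment against case (adjusted p = 0.00520). Atf3, a further gene that the study selected on these hearts, had 1.90 ± 0.45 SE and -2.36 ± 0.41 SE, and Mafk 1.36 ± 0.30 SE and -1.34 ± 0.28 SE. Jdp2 and Mafg also passed in treatment against case. Over the other fits, 1 to 6 of the list passed in case against control and 2 to 7 in treatment against case. Of all genes 5.03% to 31.9% and 1.96% to 31.2% passed in these fits. The EGR4 and NAB group (NAB proteins are corepressors of EGR factors) had 2 of 3 genes tested. In edgeR 0 of these passed in any comparison, with 0 at an unadjusted p under 0.05, and DESeq2 and limma also called 0.

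The calls among kinases and factors known to act upstream of these promoters stand beside shares of 15.8% of all genes called in case against control and 10.9% in treatment against case. Of 9 SRF, TCF and CREB factors, only Elk3, a partner of SRF, passed, at -0.33 ± 0.08 SE in case against control (edgeR adjusted p = 0.0209) and 0.33 ± 0.08 SE in treatment against case (adjusted p = 0.0244). Of 18 MAP kinases and RSK kinases, 2 were lower in case hearts, Mapk10 (-0.57 ± 0.12 SE) and Mapk8 (-0.28 ± 0.08 SE), which encode JNK proteins. With JWH133, 1 was higher, Mapk14 (0.41 ± 0.10 SE), which encodes p38α. The median log2 fold changes in these comparisons were -0.09 and -0.04 for the SRF, TCF and CREB factors and -0.15 and 0.12 for the kinases. RNA levels do not measure the phosphorylation by which these proteins act. Over the other fits 0 to 7 of the 18 kinases were called in each of these comparisons. Without case library d 7 were called in each, beside 31.9% and 31.2% of all genes in that fit. Of the 9 factors 0 to 2 were called in case against control and 0 to 3 in treatment against case.

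Other immediate early genes (33, all tested) included no FOS, JUN or EGR family genes. In case hearts 16 were higher and 0 lower, and with JWH133 0 were higher and 26 lower. The shares over all genes were 8.21% as higher in case hearts and 6.57% as lower with JWH133. The median log2 fold change of this list was 0.80 in case against control and -1.24 in treatment against case, against 0.01 over all genes in both. In case hearts the largest were Maff, Socs3, the feedback inhibitor of cytokine signalling (2.32 ± 0.34 SE, edgeR adjusted p = 0.00206), the matricellular gene Ccn2 (1.93 ± 0.46 SE, adjusted p = 0.0171) and Atf3. With JWH133 they were the orphan nuclear receptor Nr4a1 (-2.68 ± 0.39 SE, adjusted p = 0.00516), Csrnp1 (-2.37 ± 0.42 SE, adjusted p = 0.0100), Atf3 and Maff. Maff and Atf3 are in this list and in the bZIP list. In treatment against control hearts 2 of the 33 were lower, against 1.08% of all genes called in either direction. They were the clock gene Per1 (-1.16 ± 0.17 SE, edgeR adjusted p = 0.00857) and the pseudokinase gene Trib1 (-0.85 ± 0.15 SE, adjusted p = 0.0205). Over the other fits 0 to 16 were called in either direction. With only the 7 libraries of that comparison 1 was higher and 15 lower, and 5.81% of all genes were called. The count for case against control fell to 5, 3 and 5 when control library a, b or c was left out. It was 9 without case library a and 8 with only the 7 libraries of the comparison. Of all genes 5.03%, 5.69%, 5.34%, 8.58% and 6.08% were called in these fits, against 15.8% in the main fit. The count for treatment against case was 16 and 17 without case library a and b. It was 16, 13, 16 and 15 without treatment library a, b, c and d. Of all genes 2.73%, 3.94%, 3.29%, 2.68%, 4.28% and 3.29% were called there, against 10.9% in the main fit. The highest counts without 1 library were 24 in case against control and 27 in treatment against case. Over the fits without 1 library, 5.03% to 31.9% of all genes were called in the first comparison and 2.68% to 31.2% in the second.

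Known targets of AP-1 were called in both directions in case hearts. Their calls stand beside 15.8% of all genes called in case against control (8.21% as higher). The shares were 10.9% in treatment against case (6.57% as lower) and 1.08% in treatment against control. Of 13 tested, 2 were higher in case than in control hearts, the protease gene Mmp3 (2.77 ± 0.47 SE, edgeR adjusted p = 0.00390) and Hmox1 (2.61 ± 0.67 SE, adjusted p = 0.0242), and 2 were lower, the cyclin gene Ccnd1 (-1.25 ± 0.16 SE, adjusted p = 0.000845) and the urokinase gene Plau (-1.15 ± 0.30 SE, adjusted p = 0.0253). With JWH133, 4 were lower than in case hearts, among them Hmox1 (-2.83 ± 0.61 SE), the urokinase receptor gene Plaur (-1.46 ± 0.26 SE) and Mmp3 (-1.37 ± 0.39 SE). In treatment against control hearts 2 of the 13 were lower, among them Ccnd1 (-1.14 ± 0.16 SE, edgeR adjusted p = 0.00716), and 0 to 4 passed over the other fits. Of 8 known EGR1 targets, only the adhesion gene Icam1 passed, at 0.93 ± 0.11 SE in case against control (adjusted p = 0.000715) and -0.44 ± 0.10 SE in treatment against case (adjusted p = 0.0215). The median log2 fold change in case against control and in treatment against case was 0.53 and -0.20 for the AP-1 targets and 0.19 and 0.13 for the EGR1 targets. Over the other fits, 2 to 7 AP-1 targets were called in each of these comparisons. The shares of all genes called were 5.03% to 31.9% and 1.96% to 31.2%. In treatment against control hearts edgeR called 0 of the bZIP partners, of the SRF, TCF and CREB factors, of the MAP kinases and of the EGR1 targets, with 1, 1, 2 and 3 at an unadjusted p under 0.05, and over the other fits 0 to 1 EGR1 targets and none of the others passed.

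**Figure D5:**
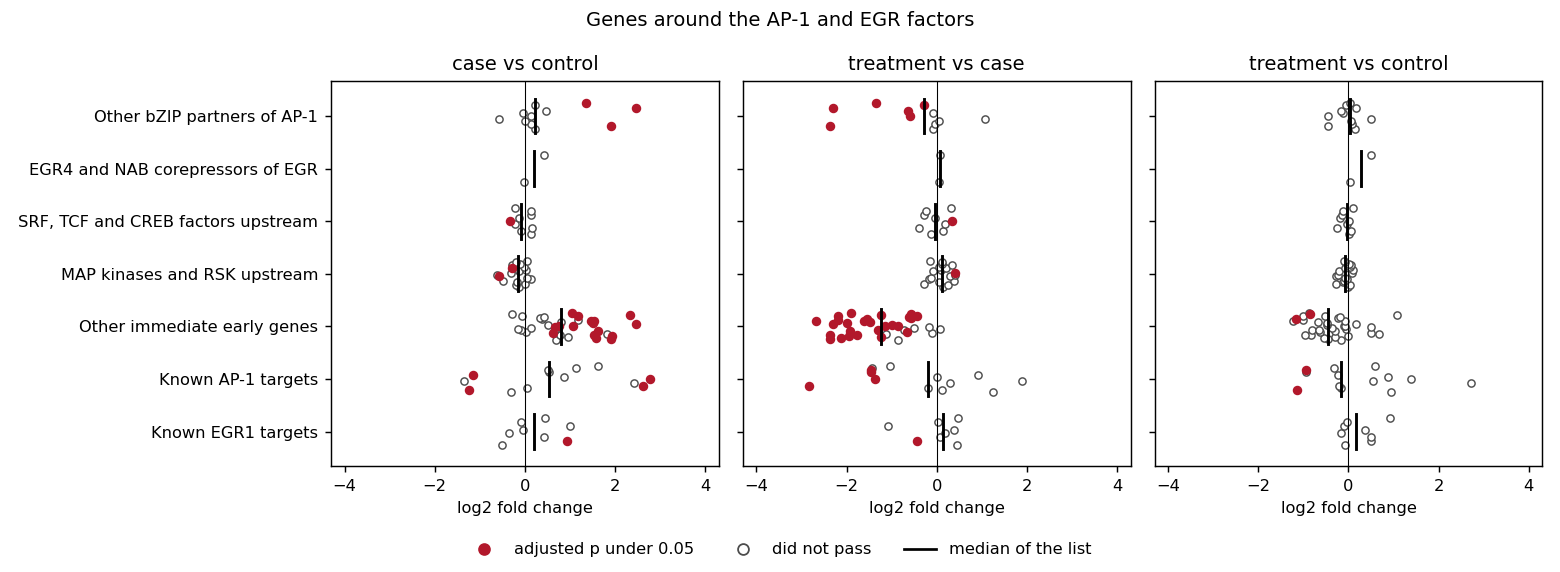
Log2 fold change (horizontal axes, edgeR) of the genes of the 7 lists around AP-1 and EGR in the 3 comparisons. Each point is a gene, filled where its adjusted p is under 0.05, and a vertical line marks the median of the list. Among the 33 other immediate early genes, 16 are filled to the right of 0 in case against control and 26 to the left in treatment against case.

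Some markers of cell types that a heart sample can hold differed between groups. Of all genes 15.8% were called in case against control (8.21% as higher) and 10.9% in treatment against case (6.57% as lower). In treatment against control 1.08% of all genes were called. All 5 erythroid markers were called higher in case hearts, with a summed level of 795 to 1714 FPKM in treatment, 607 to 1065 FPKM in case and 221 to 265 FPKM in control hearts. Neutrophil markers summed to 2.50 to 18.9 FPKM in treatment, 5.49 to 13.2 FPKM in case and 0.966 to 1.16 FPKM in control hearts, where S100a9 and Ly6g had 0 reads in all 3 libraries, and 2 of the 3 tested were called higher in case hearts. In treatment against control hearts 4 of the 5 erythroid markers were called higher. In treatment against case hearts edgeR called 0 of the 5 erythroid and 0 of the 3 neutrophil markers tested, with 2 and 0 at an unadjusted p under 0.05. Macrophage markers summed to 80.8 to 114 FPKM in treatment, 70.2 to 133 FPKM in case and 84.3 to 87.7 FPKM in control hearts, and fibroblast markers to 135 to 227, 134 to 323 and 150 to 168 FPKM in these groups. In case hearts 2 of 5 fibroblast and 1 of 5 macrophage markers were called higher, and with JWH133 1 of each was called lower. Of the 6 cardiomyocyte markers edgeR called 0 in each of the 3 comparisons, with 0 at an unadjusted p under 0.05 in case against control and 1 in treatment against case, and their sum was lowest in case libraries c, a and b (9364, 11337 and 12084 FPKM). Endothelial markers summed to 159 to 187, 158 to 167 and 171 to 185 FPKM, smooth muscle and pericyte markers to 309 to 380, 312 to 429 and 328 to 372 FPKM, and T and B cell markers to 0.364 to 0.573, 0.0894 to 0.499 and 0.687 to 0.942 FPKM in treatment, case and control hearts. With JWH133, 1 endothelial marker was called higher and 1 lower than in case hearts, and 1 of the 2 T and B cell markers tested was called lower in case than in control hearts. The part of these markers in the levels of the AP-1 and EGR genes was not tested.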

How the data were processed

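Whole-heart RNA was sequenced as paired-end libraries of 4 treatment, 4 case and 3 control mice, each a different animal per the study. The authors deposited raw counts of reads per gene and library in 1 table, with a length per gene in bases, and 11 further columns of per-library values that were not used here. FPKM was computed from the counts, that length and the library's total. The submitters' notes name cutadapt, HISAT2, TopHat2 and mm10. Versions, the counting program, its annotation and its use of strand: not given in the sources used here. Coordinates were taken from GENCODE M21 (GRCm38), since table positions matched it for 511 of 21794 shared genes and for 0 of the 10 factors. Promoter windows were from RefSeq (GRCm38.p6), matched by symbol, and 7 of 10 were used.

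A supplementary table of the study names the column groups of the case and treatment hearts. The remaining column group was taken as control, since its 3 columns equal the number of control mice. Column letters could not be matched to replicate numbers. The single-end samples of the labels have no columns in this table and were not analysed here. The 10 genes, the gene lists and the markers were chosen with earlier results of these data known. Besides the 10 factors, up to 4 called genes of a list with the largest fold changes, and the 5 genes most like Fos and Egr1, were named, with 2 further bZIP genes (Jdp2 and Mafg) named after their values were seen. Some genes that this rule would name are not reported here.

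R 4.3.3 with edgeR 4.0.16 (filter on low counts, TMM, quasi-likelihood test) fitted 1 model to the 11 libraries, so that all comparisons share the estimate of spread. SE is the absolute log2 fold change over the root of F. DESeq2 1.42.0, limma 3.58.1 on log2(FPKM + 1) and log2(FPKM + 0.1), other filters and scalings, and fits without each library were alternatives. The scripts were tested on simulated data. Python 3.11.15, pandas 2.3.3, numpy 2.4.6 and matplotlib 3.10.9 were used for sequences and figures. No pair of libraries in a group agreed within sampling noise (lowest chi-square per degree of freedom 6.83). Reads carried no molecular identifiers that the sources used here mention, so limits from read counts cover counting error only.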

Additional observations from a re-analysis of the deposited data

Results flagged for a closer look

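In the 20 sets of 4 libraries examined (10 factors in the treatment and in the case hearts), 3 held a library far from the others by Dixon's criterion at the 95% level, which chance meets in about 1 of 20 sets. Fos was 2.13 FPKM in treatment library d, where the nearest treatment heart had 0.708 FPKM. Fosb was 0.485 FPKM in the same library, where the nearest had 0.147 FPKM. Egr2 was 1.51 FPKM in case library d, where the nearest case heart had 0.419 FPKM. The cause of these values was not tested.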

How the results depend on the processing

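No paired analysis was possible because the columns carry letters, and no source used here links these to replicate numbers. Fos, Fosl2 and Junb kept direction and call in each of the 17 other fits in case against control and in treatment against case. The adjusted p without 1 library ranged from 0.00153 to 0.0482 (Fos), 9.83e-06 to 0.0182 (Fosl2) and 2.88e-06 to 0.00484 (Junb) in case against control, and from 0.000456 to 0.0270, 3.25e-06 to 0.0189 and 4.33e-06 to 0.0134 in treatment against case. Without 1 library, 3 to 5 factors were called in case against control (5 without case library d, 4 higher and 1 lower), 3 to 5 in treatment against case and 0 to 1 in treatment against control (1 without treatment library d). Without case library d 31.9% and 31.2% of all genes were called in the first 2 comparisons. Without treatment library d, 3.29% were called in treatment against case and 0.776% in treatment against control. The lowest shares without 1 library were 5.03%, 2.68% and 0.149% in the 3 comparisons, and the highest in treatment against control was 2.46%.

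Some fold changes that did not pass changed sign without 1 library. In case against control the log2 fold change ranged from -0.218 to 0.0916 for Jund, -0.0541 to 0.164 for Egr1, -0.29 to 0.85 for Egr2 and -1.36 to 0.0852 for Egr3. In treatment against case it ranged from -0.75 to 0.39 for Egr2 and -0.36 to 1.09 for Egr3, and in treatment against control from -0.10 to 0.28 for Egr2. With limma at pseudocounts of 1 and 0.1, Egr1 in case against control was -0.0202 and -0.0288, and Egr3 in treatment against case was 0.0179 and 0.278. The cause was not tested beyond the libraries named. Counts of called genes in the 7 lists moved by over 1.5 times in 96 of 357 refits, which were added after the data were seen, so these counts are less firm than the calls of Fos, Fosl2 and Junb. Depth limits Fosl1 (0 to 4 reads), Egr3 (10 to 106 reads), Fosb (15 to 132 reads) and Egr2 (27 to 151 reads per library).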
